A study of Homo sapiens with 6 samples.

Results

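Translation initiation factor genes were taken as the genes whose symbol starts with EIF1 to EIF6, without the eIF2 kinases (EIF2AK symbols) and without EIF4A3, which belongs to the exon junction complex. The rule used symbols alone and found 49 of the 15598 genes in the deposited table. There were 14 members in the eIF3 group, 14 in the eIF4 group and 11 in the eIF2 group, with the remaining members in the eIF1 and the eIF5 and eIF6 groups. After a filter on low counts 47 members were tested, and EIF3K and EIF4EBP3 were not.

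Initiation places a ribosome on the start codon of an mRNA. The factor eIF2 brings the initiator tRNA to the small ribosomal subunit, and eIF2B recharges eIF2 with GTP after each round. The multisubunit eIF3 holds the small subunit and its partners together, while eIF1 and eIF1A keep it open for scanning. The eIF4 factors recognise the cap (eIF4E), bridge it to eIF3 (eIF4G) and unwind the leader (eIF4A with eIF4B or eIF4H). eIF5 triggers GTP hydrolysis on eIF2, eIF5B joins the large subunit, and eIF6 keeps free large subunits apart. In tumour cells eIF4E and eIF4A are best known as outputs of growth signalling.

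RNA sequencing was done on MHCC97H, an established human hepatocellular carcinoma line of high metastatic capacity. One group carried a short hairpin RNA against HNRNPC (shHNRNPC, 3 libraries) and the other a control hairpin (shcontrol, 3 libraries); the labels give no further allele, treatment or time. The targeted gene encodes hnRNP C, which coats new transcripts in the nucleus at runs of uridine. Whether a line was a clone or a pool is not given in the sources used here, nor are the hairpin sequences. The design text speaks of a microarray, but the series type and the values are those of sequencing.

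Levels are read counts scaled by TMM to effective library size and given as CPM, a scaling that takes out differences in total and composition. Fold changes are shHNRNPC over shcontrol on the log2 scale with their standard error (SE), and adjusted p-values come from edgeR's quasi-likelihood test with Benjamini-Hochberg adjustment over 11831 tested genes, called at 0.05. HNRNPC itself had 853 ± 4.76 CPM (SD, n = 3) in shcontrol and 62.3 ± 3.80 CPM in shHNRNPC (-3.77 ± 0.030, adjusted p = 5.04e-55). Library totals ran from 15563077 to 18328475 counts, and the 49 members took 1.18% to 1.24% of them. The keratins KRT8 and KRT18 were abundant, with KRT8 at 1006 ± 7.07 CPM in shcontrol. The hepatocyte markers ALB, APOA1, AFP and HNF4A were listed at or near 0 in every library. Of the markers of fibroblasts, leukocytes and endothelium, COL1A1 alone passed the filter, at 15.6 ± 0.687 CPM in shcontrol and 15.8 ± 0.791 CPM in shHNRNPC. In bulk RNA, fewer cells making a transcript and less of it per cell cannot be told apart.

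The promoters of 6 members are printed as examples, picked after their values were seen, to set genes that fell (EIF2D, EIF3J, EIF4G3 and EIF5B) beside genes that rose (EIF3I and EIF4G1). The sequences are from RefSeq on GRCh38.p14, 180 bases before to 20 after the annotated start, written 5′ to 3′ on the gene's strand. Capitals mark GGGCGG (the GC box core), CGGAAG (the core of an ETS-type site) and CACGTG (the E-box of MYC and USF proteins) on either strand, so that CCGCCC and CTTCCG are also in capitals.
EIF2D (chr1:206612446-206612645, minus strand): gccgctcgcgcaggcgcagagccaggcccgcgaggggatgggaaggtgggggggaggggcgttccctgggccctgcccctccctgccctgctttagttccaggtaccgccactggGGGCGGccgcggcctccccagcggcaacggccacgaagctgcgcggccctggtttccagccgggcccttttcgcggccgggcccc
EIF3J (chr15:44536967-44537166, plus strand): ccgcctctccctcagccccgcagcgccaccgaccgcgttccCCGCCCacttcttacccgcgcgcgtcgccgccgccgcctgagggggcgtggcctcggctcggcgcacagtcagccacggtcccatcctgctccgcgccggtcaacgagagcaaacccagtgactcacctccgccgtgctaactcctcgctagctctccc
EIF4G3 (chr1:21176878-21177077, minus strand): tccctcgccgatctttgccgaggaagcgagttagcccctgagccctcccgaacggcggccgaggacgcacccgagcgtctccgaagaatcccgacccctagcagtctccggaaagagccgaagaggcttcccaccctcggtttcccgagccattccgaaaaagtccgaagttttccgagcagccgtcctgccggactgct
EIF5B (chr2:99337209-99337408, plus strand): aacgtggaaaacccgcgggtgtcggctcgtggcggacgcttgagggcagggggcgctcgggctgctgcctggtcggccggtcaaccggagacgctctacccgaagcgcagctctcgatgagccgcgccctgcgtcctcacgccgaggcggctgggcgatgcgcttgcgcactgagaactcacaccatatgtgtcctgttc
EIF3I (chr1:32222227-32222426, plus strand): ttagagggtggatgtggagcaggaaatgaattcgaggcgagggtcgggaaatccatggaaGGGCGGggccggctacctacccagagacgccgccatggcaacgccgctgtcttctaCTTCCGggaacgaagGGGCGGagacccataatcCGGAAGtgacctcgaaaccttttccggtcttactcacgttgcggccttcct
EIF4G1 (chr3:184314426-184314625, plus strand): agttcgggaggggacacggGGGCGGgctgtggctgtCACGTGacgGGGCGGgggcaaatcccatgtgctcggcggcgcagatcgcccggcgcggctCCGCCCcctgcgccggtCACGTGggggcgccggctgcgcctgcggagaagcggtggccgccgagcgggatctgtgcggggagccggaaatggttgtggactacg
Of these windows, EIF4G1 holds CACGTG and GGGCGG, EIF3I holds GGGCGG and CGGAAG, EIF2D and EIF3J hold GGGCGG, and EIF4G3 and EIF5B hold none of the 3.

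Windows of 300 bases, 250 before to 50 after the start, were matched for 41 of the 49 members by symbol. On either strand, GGGCGG was in 28 of the 41 (68.3%), against 45% of all 35116 windows of that length. CGGAAG was in 18 (43.9%, against 19.5%) and CACGTG in 10 (24.4%, against 7.26%). CCAAT, the NF-Y motif, was in 15 (36.6%, against 34.6%), and AANATGGC, a YY1-type motif, in 11 (26.8%, against 6.58%). Among tested members with a window, 16 had fallen, 9 had risen and 14 were not called. In that order GGGCGG was in 9, 7 and 10 of them, CGGAAG in 6, 6 and 6, CCAAT in 4, 2 and 8, AANATGGC in 5, 2 and 4, and CACGTG in 0, 2 and 6. These are matches of letters in a window and do not show that a factor binds there. For each member the window nearest its deposited start was taken. The 35116 windows were not limited to a single start per gene or to tested genes. The shares are therefore not like for like, and enrichment was not tested.

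Of the 47 tested members 31 were called, 22 lower and 9 higher in shHNRNPC. The knockdown moved much of the transcriptome: 61.1% of all tested genes were called, 31.3% lower and 29.8% higher. The members' share called was 66.0%, near that background, with 22 of 31 calls downward. Their median log2 fold change was -0.092, against -0.0041 over all tested genes. The changes in the upward direction were small. As counted, no member rose by a ratio of 5 to 4 or more (0.3219 on the log2 scale), a size that 12.3% of all tested genes reached upward; after correction for GC content and length 5 did, as given further on. By contrast 10 members fell by 0.3219 or more, as did 20.1% of tested genes, and 3 of these, EIF3C, EIF2D and EIF3A, fell at least 1.5-fold. With DESeq2, which called 51.7% of tested genes, 9 members were higher and 21 lower. Against a null of a 1.2-fold change, which 25% of tested genes passed, 0 were higher and 10 lower. In 33 of the 47 tested members the 3 libraries of each group did not overlap (64% of all tested genes), 23 with shHNRNPC below and 10 with it above.

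**Figure D1:**
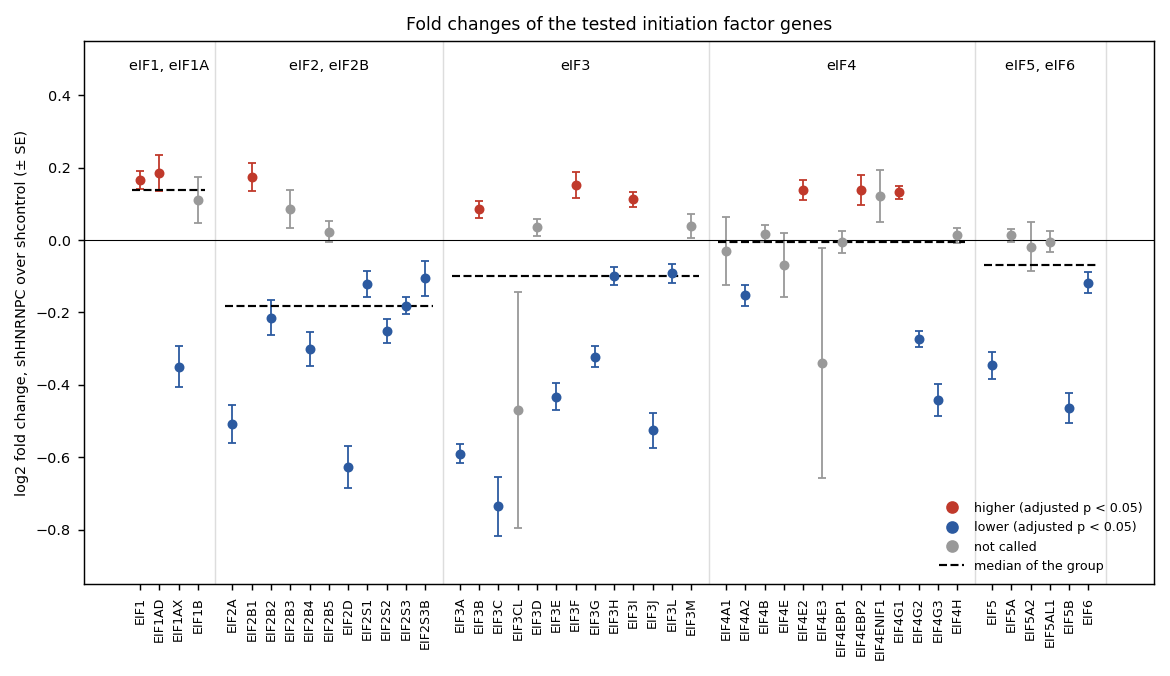
Log2 fold change (shHNRNPC over shcontrol, ± SE, 3 libraries per group) of each tested initiation factor gene, by symbol group, with the group median as a dashed line. The lowest values are EIF3C, EIF2D and EIF3A, and every gene above 0 lies below 0.2.

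The genes of the eIF1 group moved in different directions as counted. After correction for GC content and length 1 of the 4 was called higher and 0 lower. EIF1, which guards start codon choice, had 406, 407 and 402 CPM in the shcontrol libraries and 467, 461 and 435 CPM in the shHNRNPC libraries. All shHNRNPC libraries lay above all shcontrol libraries (0.17 ± 0.024, adjusted p = 9.80e-08). Its paralogue EIF1B was at 28.6 ± 0.701 CPM in shcontrol and 30.9 ± 0.92 CPM in shHNRNPC and was not called (0.11 ± 0.064, adjusted p = 0.131). EIF1AX, the X-linked eIF1A gene, had 48.8, 44.9 and 43.2 CPM in the shcontrol libraries and 36.4, 36.1 and 34.9 CPM in the shHNRNPC libraries. Each of its knockdown libraries was lower than each control library, 1.27-fold on average (-0.35 ± 0.057, adjusted p = 9.87e-07), a call lost after correction for GC content and length, as given further on. EIF1AD, named for its eIF1A domain, had 53.2, 53.9 and 51.7 CPM in the shcontrol libraries and 59.6, 64.5 and 56.3 CPM in the shHNRNPC libraries. It rose, with no overlap between the groups (0.19 ± 0.050, adjusted p = 0.00148), but this call was also lost after the correction (0.056, adjusted p = 0.339).

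The 4 genes of the eIF2 subunits were all called lower, by small amounts. EIF2S3, the gamma subunit that binds GTP and the tRNA, had 412, 408 and 418 CPM in the shcontrol libraries and 367, 364 and 361 CPM in the shHNRNPC libraries. The groups were far apart relative to their spread, but the fall was 1.13-fold (-0.18 ± 0.023, adjusted p = 4.21e-09). EIF2S2, the beta subunit, fell 1.19-fold from 142 ± 2.74 CPM (SD, n = 3) in shcontrol to 119.7 ± 2.35 CPM in shHNRNPC (-0.25 ± 0.034, adjusted p = 1.09e-08). EIF2S1, the alpha subunit that the stress kinases phosphorylate, fell 1.09-fold from 118 ± 3.88 CPM (SD, n = 3) in shcontrol to 109 ± 3.94 CPM in shHNRNPC (-0.12 ± 0.037, adjusted p = 0.00408), but was higher after that correction (0.15). EIF2S3B, a near-identical copy of EIF2S3 whose reads can be mistaken for those of EIF2S3, was at the edge of the threshold (-0.11 ± 0.047, adjusted p = 0.0490). Its call was lost after the correction (adjusted p = 0.328), with DESeq2 (adjusted p = 0.161) and when any library other than SI_3_2 was left out.

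eIF2B, the exchange factor of eIF2, showed no common direction over its 5 subunit genes. EIF2B5, the catalytic epsilon subunit and the most abundant, had 210.4, 203 and 202 CPM in the shcontrol libraries and 213, 206 and 206 CPM in the shHNRNPC libraries, with overlapping groups and no call (0.023 ± 0.029, adjusted p = 0.508). EIF2B4 (delta) fell 1.23-fold, from 62.1 ± 0.705 CPM (SD, n = 3) in shcontrol to 50.4 ± 0.222 CPM in shHNRNPC (-0.30 ± 0.047, adjusted p = 4.20e-07). EIF2B2 (beta) fell as well (-0.22 ± 0.048, adjusted p = 1.49e-04), while EIF2B1 (alpha) rose (0.17 ± 0.039, adjusted p = 1.37e-04). EIF2B3 (gamma) was not called (0.085 ± 0.052, adjusted p = 0.154). The exons of EIF2B1 and EIF2B2 overlap genes on the opposite strand over 15.6% and 23.6% of their bases, and whether strand was used in counting is not given in the sources used here, so reads of those neighbours cannot be told apart.

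Larger falls were found in EIF2A and EIF2D, which despite their symbols are not eIF2 subunits: each can place a tRNA on the small subunit without eIF2. EIF2D (chromosome 1, 206591642 to 206612459, minus strand) had 47.5, 53.0 and 48.5 CPM in the shcontrol libraries and 32.7, 33.1 and 30.7 CPM in the shHNRNPC libraries. The highest knockdown library was well below the lowest control library, and the fall was 1.54-fold (-0.63 ± 0.058, adjusted p = 5.60e-13). EIF2A had 60.2, 63.3 and 62.3 CPM in the shcontrol libraries and 47.9, 41.1 and 41.8 CPM in the shHNRNPC libraries. It fell 1.42-fold, again without overlap (-0.51 ± 0.053, adjusted p = 2.12e-11). DENR and MCTS1, whose proteins form a dimer related to EIF2D, moved apart: DENR fell (-0.29 ± 0.044, adjusted p = 2.18e-07) and MCTS1 rose (0.25 ± 0.036, adjusted p = 7.44e-08).

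Among the eIF3 genes falls were more frequent than rises as counted, and the largest changes were falls. Of the 13 tested, 7 fell, 3 rose and 3 were not called, beside 31.3% lower and 29.8% higher over all tested genes. After correction for GC content and length 9 were called lower and 3 higher, with EIF3F (0.46) and EIF3M (0.37) among the higher. EIF3A encodes the large scaffold subunit (chromosome 10, 119033670 to 119080804, minus strand). It had 368, 359 and 381 CPM in the shcontrol libraries and 247, 243 and 247 CPM in the shHNRNPC libraries, a tight 1.5-fold fall (-0.59 ± 0.026, adjusted p = 3.98e-24). EIF3C, its partner in the core (chromosome 16, 28711527 to 28735597, plus strand), had 24.3, 25 and 28.9 CPM in the shcontrol libraries and 15.9, 14.5 and 16.7 CPM in the shHNRNPC libraries. Every knockdown library was below every control library (-0.73 ± 0.081, adjusted p = 9.93e-11). The authors' deposited table gives a log2 fold change of -0.73 with an adjusted p of 7.32e-11. Those values come from the same libraries and are not independent support. EIF3C has a near-identical copy, EIF3CL, at 1.22 ± 0.208 CPM in shcontrol and 0.87 ± 0.0913 CPM in shHNRNPC, which was not called (-0.47 ± 0.325, adjusted p = 0.213). No source used here says how reads matching both copies were counted, so the levels of both are uncertain.

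EIF3E, a core subunit also known as INT6, had 117, 112 and 115 CPM in the shcontrol libraries and 85.4, 84.8 and 84.1 CPM in the shHNRNPC libraries. It fell 1.35-fold, with the groups apart (-0.43 ± 0.037, adjusted p = 7.73e-14). EIF3J, the loosely bound subunit near the decoding centre, had 79.6, 80.8 and 77.3 CPM in the shcontrol libraries and 59.4, 56.4 and 49.3 CPM in the shHNRNPC libraries. Its knockdown libraries were more spread than those of EIF3E but all below the controls (-0.53 ± 0.050, adjusted p = 1.04e-12). EIF3G, an RNA-binding subunit, fell by 0.3217, slightly less than the 0.3219 limit, from 308 ± 6.11 CPM (SD, n = 3) in shcontrol to 247 ± 11.2 CPM in shHNRNPC (-0.32 ± 0.028, adjusted p = 9.37e-14). EIF3H (-0.099) and EIF3L (-0.092) fell by under 1.1-fold, and EIF3H was higher after correction for GC content and length (0.12). EIF3L shares 41.1% of its exon bases with AL022311.1 on its strand, so its level and direction are uncertain. EIF3I, a propeller-shaped subunit and the most abundant eIF3 gene, had 631, 637 and 633 CPM in the shcontrol libraries and 685, 683 and 687 CPM in the shHNRNPC libraries. All knockdown libraries were above the controls (0.11 ± 0.021, adjusted p = 6.42e-06). EIF3F (0.15, adjusted p = 2.34e-04) and EIF3B (0.085, adjusted p = 0.00136) also rose. In EIF3F the groups overlapped, with control library NC_3 (194 CPM) above knockdown library SI_3_2 (190 CPM). After correction for GC content and length EIF3I and EIF3B were lower instead. EIF3D, which can bind the cap of some mRNAs, and EIF3M were not called (0.035 and 0.039). EIF3B lost its call with scaling by library size alone (0.045, adjusted p = 0.0888).

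The protein complex contains each eIF3 subunit once, but the transcripts differed widely in level per length, taken as CPM per kb of the longest coding transcript in GENCODE 29. In shcontrol, EIF3I stood at 435 ± 1.96 (SD, n = 3), EIF3G at 279 ± 5.54, EIF3D at 166 ± 2.85 and EIF3B at 159 ± 4.40 CPM per kb. EIF3D and EIF3B overlapped between libraries. The subunits of the octameric core were lower, from EIF3L at 90.3 ± 2.88 through EIF3H at 79.9 ± 1.26, EIF3E at 74.1 ± 1.73 and EIF3A at 55.6 ± 1.66 to EIF3M at 27.4 ± 0.750, EIF3F at 23.8 ± 1.74 and EIF3C at 8.29 ± 0.782 CPM per kb. EIF3J stood at 30.8 ± 0.678 CPM per kb. EIF3K, the last core subunit, was listed at 0 counts in all 3 shcontrol libraries. The longest form need not be the expressed one, so a level per length is uncertain where forms differ, as in EIF3F, whose longest form has 7540 bases. The level of EIF3L is also uncertain, because of the exon bases it shares with another gene. The deposited position of EIF3F (chromosome 11, 7987353 to 7987965, plus strand) spans a small part of that gene.

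**Figure D2:**
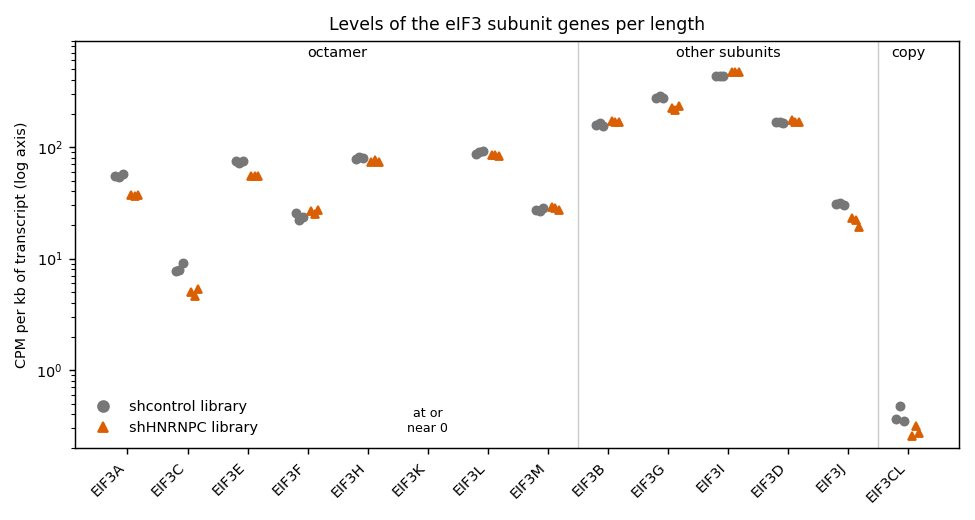
CPM per kb of transcript (log axis) of the eIF3 subunit genes in each library, shcontrol as circles and shHNRNPC as triangles, split into the octameric core, the other subunits and the copy EIF3CL. EIF3A, EIF3C, EIF3CL, EIF3E, EIF3G, EIF3H, EIF3J and EIF3L have all triangles below all circles, and EIF3K is at or near 0.

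In the eIF4 group 3 of 13 tested genes rose, 3 fell and 7 were not called, beside 29.8% higher and 31.3% lower over all tested genes. All 3 eIF4G scaffolds were among those called. EIF4G1, the main bridge between cap, helicase and eIF3 (chromosome 3, 184314495 to 184335357, plus strand), was the most counted initiation factor gene of this group, with 2030.0, 2068 and 2048 CPM in the shcontrol libraries and 2224, 2238 and 2269.7 CPM in the shHNRNPC libraries. It rose by 1.10-fold, more than the spread in either group (0.13 ± 0.017, adjusted p = 5.16e-09). EIF4G3, its paralogue, had 85.0, 80.7 and 84.3 CPM in the shcontrol libraries and 63.4, 61.7 and 59.2 CPM in the shHNRNPC libraries. It fell 1.36-fold without overlap (-0.44 ± 0.044, adjusted p = 4.40e-12). EIF4G2 (DAP5), a relative that lacks the eIF4E-binding region, fell 1.21-fold from 789.9 ± 20.6 CPM (SD, n = 3) in shcontrol to 654 ± 10.7 CPM in shHNRNPC (-0.27 ± 0.022, adjusted p = 4.25e-15). EIF4G1 made up 96.4% ± 0.127 (SD, n = 3) of the summed CPM per kb of EIF4G1 and EIF4G3 in shcontrol and 97.6% ± 0.106 in shHNRNPC.

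**Figure D3:**
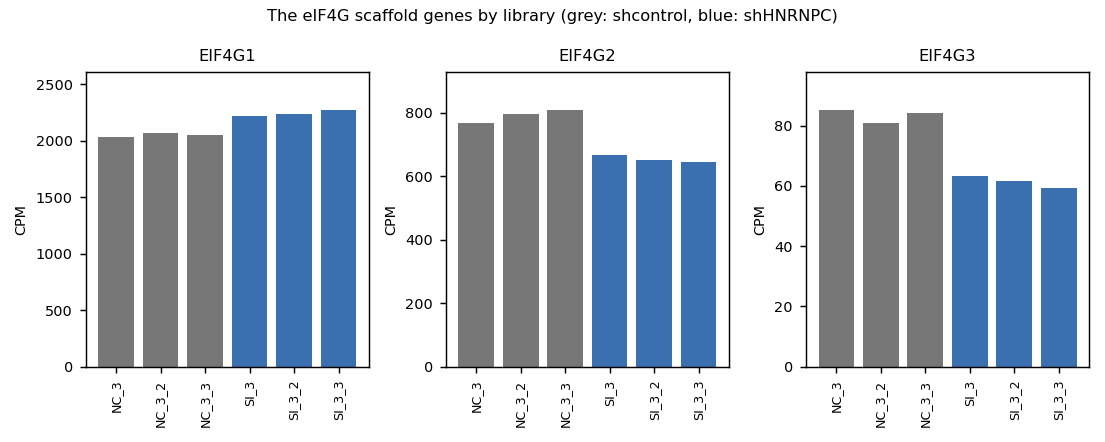
CPM of EIF4G1, EIF4G2 and EIF4G3 in each library, shcontrol in grey and shHNRNPC in blue, each panel on its own axis from 0. The blue bars stand above the grey ones in EIF4G1 and below them in EIF4G2 and EIF4G3.

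Of the cap binders and their inhibitors EIF4E2 and EIF4EBP2 were called, both higher. EIF4E, the cap-binding protein itself, had 17.1 ± 2.14 CPM (SD, n = 3) in shcontrol and 16.4 ± 0.79 CPM in shHNRNPC, with overlapping groups and no call (-0.068 ± 0.089, adjusted p = 0.523). EIF4E2 (4EHP), a cap binder that does not join eIF4G and represses its targets, had 195, 195 and 195 CPM in the shcontrol libraries and 211, 213 and 219.9 CPM in the shHNRNPC libraries. It rose (0.14 ± 0.028, adjusted p = 4.19e-05), although 24.2% of its exon bases overlap opposite-strand genes. EIF4E3 was near the filter at 1.39 ± 0.559 CPM in shcontrol and was not called. EIF4EBP1, the mTOR-controlled eIF4E inhibitor, had 203, 191 and 208 CPM in the shcontrol libraries and 198, 199 and 203 CPM in the shHNRNPC libraries, with overlapping groups (-0.0049 ± 0.030, adjusted p = 0.898). Its paralogue EIF4EBP2 rose (0.14 ± 0.042, adjusted p = 0.00401), but not without library NC_3_2 (0.097, adjusted p = 0.0599) or SI_3 (0.10, adjusted p = 0.052). EIF4ENIF1 (4E-T), a transporter of eIF4E, was not called (0.12 ± 0.072). The helicase cofactor EIF4H, at 587, 598 and 596 CPM in the shcontrol libraries and 595, 603 and 599 CPM in the shHNRNPC libraries, and EIF4B, at 339 ± 4.91 CPM (SD, n = 3) in shcontrol and 343 ± 5.91 CPM in shHNRNPC, were not called (0.013 and 0.018).

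The eIF4A helicases could be read for EIF4A2 alone. EIF4A2 had 199.6, 202 and 201 CPM in the shcontrol libraries and 182, 179 and 181 CPM in the shHNRNPC libraries. It fell 1.11-fold with no overlap (-0.15 ± 0.029, adjusted p = 1.02e-05), and the call was lost after correction for GC content and length (-0.034, adjusted p = 0.310). EIF4A1, usually the main helicase of proliferating cells, had a low count, with 14.2, 14.7 and 12.7 CPM in the shcontrol libraries and 14.5, 12.3 and 13.9 CPM in the shHNRNPC libraries, and was not called (-0.031 ± 0.095, adjusted p = 0.795). It shares 48.6% of its exon bases with other genes on its strand, among them the readthrough gene SENP3-EIF4A1, and has 13 processed pseudogenes in GENCODE 29. The per-length values in the same deposited table, otherwise not used here, place it far higher. Its level and direction are therefore uncertain here.

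The late factors either fell or were not called. EIF5B, the GTPase that joins the subunits, had 102, 105 and 104 CPM in the shcontrol libraries and 80.3, 72.5 and 72.8 CPM in the shHNRNPC libraries. It fell 1.38-fold, with the groups apart (-0.46 ± 0.041, adjusted p = 2.10e-13). EIF5, the GTPase activator of eIF2, had 123, 118 and 124 CPM in the shcontrol libraries and 92.4, 96.5 and 98.6 CPM in the shHNRNPC libraries. It fell 1.27-fold, also without overlap (-0.35 ± 0.037, adjusted p = 3.67e-11). After the correction for GC content and length both remained called with smaller falls (EIF5B -0.13, EIF5 -0.099). As counted EIF6 fell by less than these, from 227 ± 2.73 CPM (SD, n = 3) in shcontrol to 209 ± 7.69 CPM in shHNRNPC (-0.12 ± 0.029, adjusted p = 4.14e-04). After the correction EIF6 fell by more than either (-0.37, adjusted p = 2.60e-18). It shares 17.4% of its exon bases with AL121753.1 on its strand, so reads of that gene cannot be told apart. EIF5A, the hypusine-carrying factor that acts mainly in elongation, was the member with the highest level per length and had 1821, 1791 and 1794 CPM in the shcontrol libraries and 1809, 1829 and 1818 CPM in the shHNRNPC libraries, with overlapping groups (0.013 ± 0.017, adjusted p = 0.528). EIF5A2 (-0.019) and EIF5AL1 (-0.0047), a near-identical copy of EIF5A that can share its reads, were not called.

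**Figure D4:**
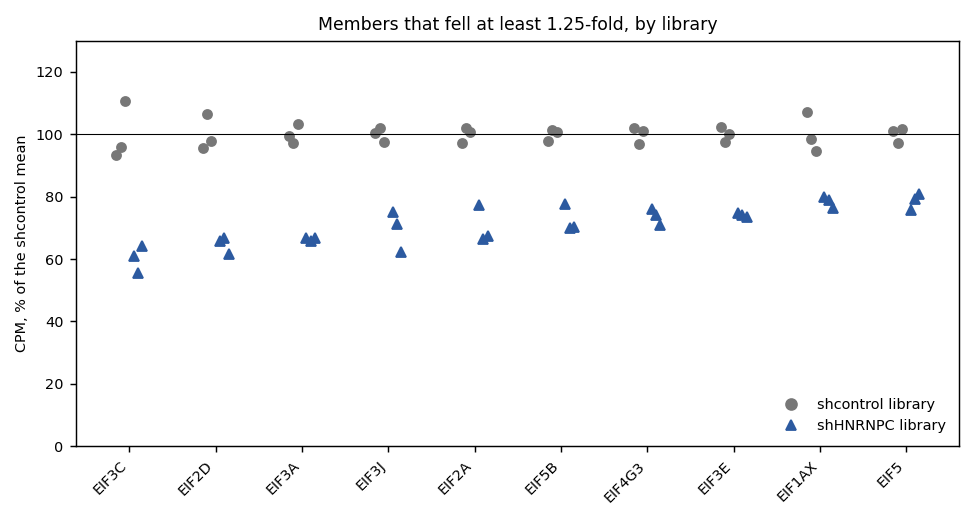
CPM of the 10 members that fell by 0.3219 or more on the log2 scale, as a percentage of each gene's shcontrol mean, in every library (3 shcontrol circles, 3 shHNRNPC triangles). In each gene the triangles lie below the circles, from EIF3C as the lowest to EIF5.

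Set side by side, the eIF2 group had the lowest median log2 fold change, at -0.18, then the eIF3 group at -0.099 and the eIF4 group at -0.0049. Of tested genes called, 8 of 11 fell and 1 rose in the eIF2 group, 7 of 13 fell and 3 rose in the eIF3 group, and 3 of 13 fell and 3 rose in the eIF4 group, beside 31.3% lower and 29.8% higher in all tested genes. Summed over its tested genes, eIF2 went from 1312 ± 9.32 CPM (SD, n = 3) to 1189 ± 15.2 CPM. eIF3 went from 3301 ± 9.11 to 3126 ± 30.1 CPM and eIF4 from 4592 ± 39.1 to 4647 ± 15.8 CPM. As counted, the falls of 0.3219 or more were 2 of 11 in the eIF2 group, both outside eIF2 and eIF2B themselves, 4 of 13 in eIF3 and 1 of 13 in eIF4. Over all tested genes 20.1% fell that far. After correction for GC content and length the eIF2B gene EIF2B4 also did (-0.51). The order of the groups is a description, since no test of the difference between groups was made. It also changed when a correction for the GC content and length of the transcripts was applied, as the next values show.

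Across all tested genes the log2 fold change rose with the GC content of the transcript (Pearson's r = 0.40 over 11813 genes, which are not independent) and fell with its log length (r = -0.28). Over the 47 members the same correlations were 0.16 and -0.074. With both properties corrected in the edgeR fit, 17 of the 22 members called lower and 6 of the 9 called higher kept call and direction, and 57.2% of tested genes were called. The median became -0.15 for eIF2, -0.21 for eIF3 and -0.0037 for eIF4, against -0.050 for all genes, so that eIF3 then had the lowest. Of the 10 largest falls 9 remained called. EIF3C (-0.90) and EIF2D (-0.83) were lower still, while EIF3A (-0.38), EIF3J (-0.32), EIF2A (-0.35), EIF4G3 (-0.35), EIF3E (-0.26), EIF5B (-0.13) and EIF5 (-0.099) fell by less. The last of the 10, EIF1AX, was no longer called (0.025, adjusted p = 0.732). EIF3B (-0.082) and EIF3I (-0.10) turned from higher to lower, and EIF2S1 (0.15) and EIF3H (0.12) from lower to higher, each still called. EIF4E became called higher (0.33, adjusted p = 0.00109) and EIF5A lower (-0.22, adjusted p = 2.37e-17). EIF3G (-0.59), EIF2B4 (-0.51) and EIF6 (-0.37), called lower by less than 0.3219 as counted, then fell by more than that and stayed called. Rises of 0.3219 or more, absent as counted, were then called in EIF3F (0.46), EIF5A2 (0.42), EIF3M (0.37), EIF4EBP2 (0.33) and EIF4E. The correction rests on the longest coding transcript, which in the genes with these rises runs from 5051 bases (EIF3M) to 11523 (EIF4E). That form need not be the expressed one, so these rises, the larger falls and the corrected order of the groups are uncertain. The part of GC content and length in the uncorrected changes was not tested.

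**Figure D5:**
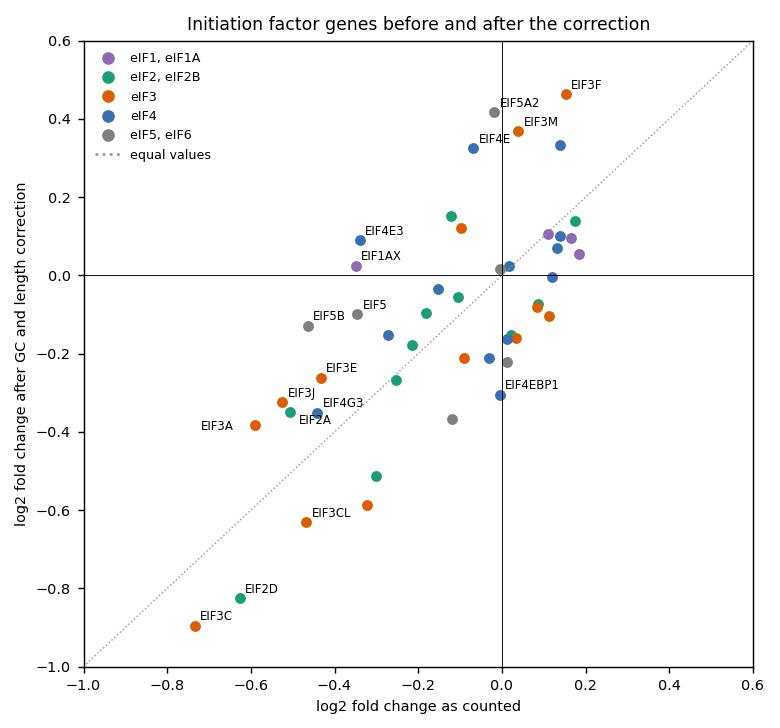
Log2 fold change of each tested member as counted (x axis) and after correction for transcript GC content and length (y axis), coloured by symbol group, with the dotted line at equal values. EIF3C and EIF2D stay lowest, while EIF1AX, EIF2S1, EIF3H, EIF4E, EIF4E3, EIF5A2 and EIF5AL1 move from below 0 to above it.

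The other genes of translation moved about as often: of 59 listed, 58 were in the table and 54 tested, and 25 fell and 12 rose, with a median of -0.091. That is 68.5% called, near the 61.1% over all tested genes (31.3% lower, 29.8% higher). Among eIF2 kinases and phosphatase subunits 4 of 9 fell and 1 rose (55.6% called, below the 61.1% of all tested genes). EIF2AK3 (PERK), the kinase of endoplasmic reticulum stress, fell 1.66-fold, from 17.5 ± 1.90 CPM (SD, n = 3) in shcontrol to 10.5 ± 0.704 CPM in shHNRNPC (-0.73 ± 0.096, adjusted p = 8.44e-09). Among the cap, poly(A) and eIF4 partners 7 of 17 fell and 5 rose. MKNK2, a kinase that phosphorylates eIF4E, rose 1.62-fold, from 138 ± 1.80 CPM (SD, n = 3) in shcontrol to 224 ± 7.19 CPM in shHNRNPC (0.69 ± 0.031, adjusted p = 4.43e-24), the one rise of at least 1.5-fold. CYFIP1, an eIF4E-binding protein, fell 1.84-fold, from 61.0 ± 2.57 CPM (SD, n = 3) in shcontrol to 33.2 ± 1.26 CPM in shHNRNPC (-0.88 ± 0.054, adjusted p = 9.82e-19). Among recycling, reinitiation and start-codon partners 5 of 9 fell and 2 rose. ABCE1, the ATPase that splits ribosomes after termination, fell 1.54-fold, from 66.2 ± 1.52 CPM (SD, n = 3) in shcontrol to 42.9 ± 1.97 CPM in shHNRNPC (-0.63 ± 0.050, adjusted p = 5.25e-15).

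Of the release factors 2 of 3 fell, where 31.3% of all tested genes did. GSPT1 (eRF3a), the GTPase that works with eRF1, had the largest fall of the listed genes, from 298 ± 5.41 CPM (SD, n = 3) in shcontrol to 159 ± 1.62 CPM in shHNRNPC (-0.91 ± 0.028, adjusted p = 2.37e-30). Of 7 tested elongation factors 2 fell and 2 rose. EEF1E1, a small protein of the multi-tRNA synthetase complex, fell from 4.59 ± 0.167 CPM (SD, n = 3) in shcontrol to 2.76 ± 0.511 CPM in shHNRNPC (-0.74 ± 0.180, adjusted p = 4.41e-04). The 9 mitochondrial translation factors held 5 that fell and 2 that rose, again beside 31.3% lower and 29.8% higher over all tested genes. MTRF1, a mitochondrial release factor, fell from 7.60 ± 0.164 CPM (SD, n = 3) in shcontrol to 4.05 ± 0.836 CPM in shHNRNPC (-0.91 ± 0.148, adjusted p = 8.49e-07).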

How the data were processed

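RNA was extracted with Trizol and made into libraries with a NEBNext Ultra kit, per the labels' protocols. STAR, HTSeq 0.6.0 and DESeq2 are named in the submitters' processing notes, with no role. For genome build and strand use, nothing was given in the sources used here. Read counts were deposited by the authors as raw whole numbers for each gene. The deposited log2 fold changes and the deposited p-values are the authors' own. Columns named NC were taken as shcontrol and those named SI as shHNRNPC, by group only, and another 24 columns of per-library values were not used.

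Counts were filtered with filterByExpr, scaled by TMM and fitted with glmQLFit and glmQLFTest in edgeR 4.0.16 (R 4.3.3), with Benjamini-Hochberg adjustment over all tested genes. The SE is the fold change divided by the root of the F statistic. Alternatives were other scalings and filters, DESeq2 1.42.0, limma 3.58.1 voom, a 1.2-fold null, each library left out, and a GC and length offset from the longest coding transcript in GENCODE 29. The edgeR fit was tested on simulated counts. All 15211 positions in the table overlap the GENCODE 29 gene of that name (GRCh38), and positions are printed as deposited. Within groups, libraries differed by more than counting noise (chi-square per gene 1.56 to 2.50, against 29.5 to 33.6 between groups), so none was merged. Nothing ties a library to a separate culture, so p-values measure only the spread between these samples, which may be technical.

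The members, role groups and lists were chosen with earlier results of these data known. Values in every library are given for members called with a log2 change of at least 0.3219 in size and for the most abundant of each role, and other translation genes are named at a fold of at least 1.5. DENR and MCTS1 were named outside this rule, after their values were seen.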

Additional observations from a re-analysis of the deposited data

How the results depend on the processing

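No paired analysis was possible because the deposited columns carry no replicate number of the sample titles. With 3 libraries a group, leaving out each in turn gave 8 to 9 members higher and 21 to 22 lower, and 11 to 13 other translation genes higher and 24 to 27 lower. The group medians then ran from -0.19 to -0.17 (eIF2), -0.12 to -0.088 (eIF3) and -0.016 to 0.015 (eIF4), so the eIF4 median has no settled sign. It was 0.0015 with RLE size factors, 0.0098 with the upper quartile, 0.0075 with a mean of at least 5 CPM, -0.014 with no filter and -0.045 with library size alone. The eIF2 and eIF3 medians were -0.17 and -0.084 with the upper quartile, -0.22 and -0.14 with library size alone, and -0.15 and -0.21 with the GC and length correction. Library size alone moved the median of all genes to -0.044 and the correction to -0.050. Against a 1.2-fold change 0 members were higher and 10 lower, and 1 and 13 of the other translation genes, since that null asks for larger changes. The correction reversed EIF1AX (0.025), EIF2B5 (-0.15), EIF2S1 (0.15), EIF3B (-0.082), EIF3D (-0.16), EIF3H (0.12), EIF3I (-0.10), EIF4E (0.33), EIF4H (-0.16), EIF5A (-0.22) and EIF5A2 (0.42), and newly called EIF3M (0.37), EIF4A1 (-0.21) and EIF4EBP1 (-0.31). The cause was not tested. No other alternative reversed the direction of a called member. Depth limits EIF3CL, EIF4E3, EIF4E and EIF4A1, which are at under 20 CPM.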

Other observations

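EIF3K and EIF4EBP3 failed the filter on low counts. EIF3K was listed at 0 counts in all libraries but SI_3_2, which had 1. EIF4EBP3, an eIF4E inhibitor, had 0.0538 to 0.19 CPM in shcontrol and 0.0608 to 0.17 CPM in shHNRNPC, and it shares 73.4% of its exon bases with the readthrough gene ANKHD1-EIF4EBP3. Among the other translation genes EEF1B2 and DHPS were also listed at 0 counts in all 3 shcontrol libraries, although dividing cells are known to need both. A level listed at 0 in this table is therefore not read as absence.

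Shares within the other paralogue pairs were computed from CPM per kb of the longest coding transcript, which need not be the expressed one. EIF1 made up 86.0% ± 0.352 (SD, n = 3) of EIF1 and EIF1B in shcontrol and 86.4% ± 0.40 in shHNRNPC. EIF5A made up 99.5% ± 0.0402 of EIF5A and EIF5A2 in shcontrol and 99.6% ± 0.0187 in shHNRNPC. EIF4EBP1 made up 94.4% ± 0.0843 of EIF4EBP1 and EIF4EBP2 in shcontrol and 93.8% ± 0.282 in shHNRNPC. EIF4E made up 2.62% ± 0.315 of EIF4E and EIF4E2 in shcontrol and 2.28% ± 0.106 in shHNRNPC. The size of that share is uncertain, since it rests on lengths of 11523 bases for EIF4E and 3525 for EIF4E2. These shares are descriptions, with no test.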
